A study of Mus musculus with 19 samples.

Results

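Transcripts of pools of 200 dendrites were compared with those of pools of 100 dendrites, both cut from cultured hippocampal neurons of C57BL/6 mice. The comparison used the 9 of the 19 arrays of the series whose titles name this strain and these pool sizes, 5 with 200 dendrites and 4 with 100. Both groups came from primary cultures of E18 embryos (embryonic day 18), kept for 14 days, and neither received a treatment. The labels call the cells pyramidal neurons, the main excitatory cells of the hippocampus. Each array held 1 pool gathered by glass pipette from several cells, and its RNA went through repeated rounds of amplification. The other arrays held 5 pools of 400 dendrites of the same strain and, from the strain Balb/c, 2, 1 and 2 pools of 100, 200 and 400 dendrites. The comparison asks whether the number of dendrites in a pool alters the transcripts measured. Arrays are named here by dendrites and replicate, so that 200-1 is replicate 1 of the pools of 200.

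Dendrites carry a set of mRNAs that motor proteins and RNA-binding proteins bring from the cell body, and ribosomes in the dendrite translate them near synapses. Camk2a, which codes for a calcium-dependent kinase of the synapse, and Map2, which codes for a microtubule protein of dendrites, are well known examples. Axons of these cells could not be told from dendrites by shape, so the pools may hold some axonal RNA. The sources call the pools biological replicates and do not say whether each pool of 1 size had its own culture or animal. A p-value here therefore measures only how these pools vary, which may be technical. Less RNA per dendrite and fewer dendrites of a kind cannot be told apart in pooled RNA.

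Values are log2 expression levels, so a difference of 1 is a factor of 2. A gene's level was the median of its probe sets, and differences are 200 minus 100. Over 18193 genes the array medians ran from 6.74 to 6.92. Correlations between arrays ran from 0.799 to 0.945 (median 0.861) among the 6 pairs of pools of 100, from 0.741 to 0.915 (median 0.814) among the 10 pairs of pools of 200, and from 0.722 to 0.897 (median 0.849) among the 20 pairs of unlike size. Array 200-1 stood apart from the rest. Its mean correlation was 0.756 with the other pools of 200, 0.747 with the pools of 100 and 0.781 with the 5 Balb/c arrays, and it reached 0.891 and 0.859 with the Balb/c arrays 400-2 and 200-1 and 0.849 with the C57BL/6 array 400-1, against at most 0.774 with the other C57BL/6 arrays. Array 200-1 was used as labelled, and whether its label is right, on which each 200 minus 100 value rests in part, was not tested. Array 100-2 had a mean of 0.819 with the other pools of 100. Array 200-2 correlated at 0.91 with 200-3, and 200-4 at 0.915 with 200-5, while correlations across these pairs ran from 0.804 to 0.835. The deposited numbers of 100-1, 100-2 and 200-1 had up to 14 decimals and those of the other 6 arrays up to 9, a split that is treated here as a technical batch. No source used here explains the split. The 3 arrays most like 200-1 also had the long format, but so did those least like it, Balb/c 100-2 (0.68) and C57BL/6 100-2 (0.725).

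**Figure D1:**
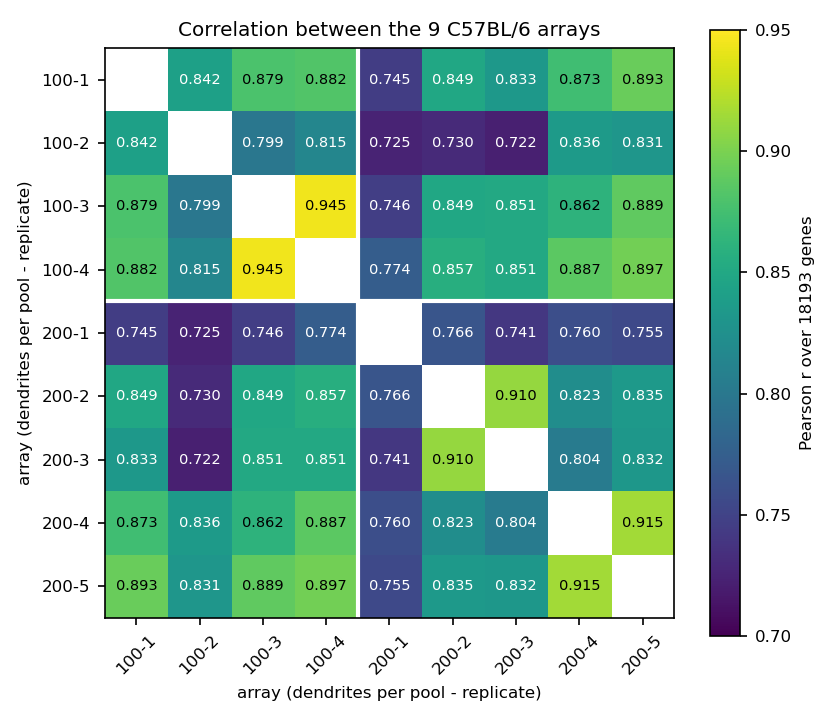
Pearson correlation over 18193 genes between each pair of the 9 C57BL/6 arrays, with pools of 100 first and lines between the pool sizes. The row of 200-1 lies between 0.725 and 0.774, and the closest pair is 100-3 with 100-4 at 0.945.

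No gene differed between pools of 200 and pools of 100 at an adjusted p under 0.05. By limma, 0 of 18193 genes passed (0.0%), and the lowest adjusted p was 0.101. At an unadjusted p under 0.05, 867 genes were higher in pools of 200 (4.77% of all genes) and 554 lower (3.05%). The methods' t-test also called 0 genes after adjustment, with 872 higher and 472 lower unadjusted, and limma with array weights called 3 (0.0165%). The median difference over all genes was 0.02, and single genes ranged from -3.0 to 4.07. The 95% confidence interval of the difference lay within 1 log2 unit of 0 for 6998 genes (38.5%), and an estimate beyond 1 unit was seen for 869 genes (4.78%) and beyond 2 units for 26. Levels in all 5 pools of 200 lay above those in all 4 pools of 100 for 359 genes (1.97%) and below them for 162 (0.89%). In simulated data with the spread of each gene in these arrays, the test recovered 22% of changes of 1 log2 unit, 73% of changes of 2 and 96% of changes of 3. The simulation changed 100 genes of each size at once and left out the likeness between single arrays. These rates therefore do not give the chance of finding a lone changed gene here.

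The split by pool size took up 15.4% of the variance of all genes over the 9 arrays. An exact one-sided permutation test over all ways to choose 4 of 9 arrays gave p = 0.159. Any split of a few arrays takes up some of the variance, and tends to take up more where fewer arrays enter. Shares from unlike numbers of arrays are therefore not directly comparable. Without 200-1 the share was 18.3% (exact permutation p = 0.171), and within the 6 arrays of the short number format it was 25.3% (exact permutation p = 0.2, where the smallest p possible is 0.0667). The mean correlation was 0.86 within pools of 100 and 0.814 within pools of 200, a difference of -0.0463 (two-sided exact permutation p = 0.476). It was -0.00731 without 200-1 (exact permutation p = 0.886), -0.0879 without 100-2 (exact permutation p = 0.125) and -0.0489 without both (exact permutation p = 0.0857). Within the short number format it was -0.0921, with an exact permutation p of 0.0667, the smallest that 2 against 4 arrays can give. The SD of a gene between arrays had a median of 0.432 in pools of 100 and 0.544 in pools of 200, and leaving out 200-1 took the latter to 0.458. Without 200-1 and 100-2 the medians were 0.338 (3 arrays) and 0.458 (4 arrays). Within the short number format they were 0.21 (2 arrays) and 0.458 (4 arrays), and 21.0% of genes had the larger SD in pools of 100. A median SD tends to be lower where fewer arrays enter it, so groups of unlike size are not directly comparable.

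**Figure D2:**
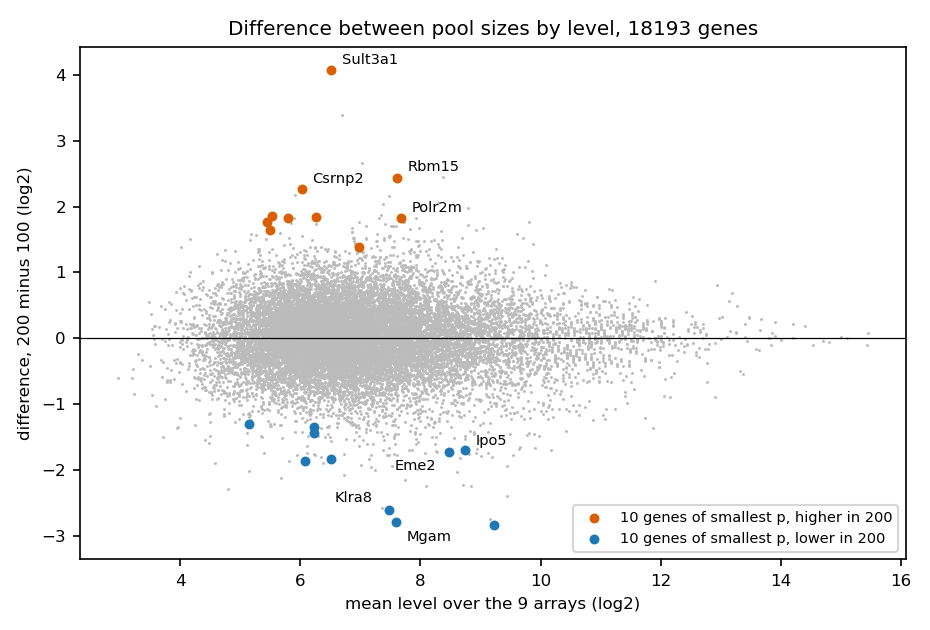
Difference of each of 18193 genes (200 minus 100, log2) against its mean level over the 9 arrays (log2). Orange and blue points are the 10 genes of smallest p in each direction, none of which passed the adjusted threshold.

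Among the 10 genes of smallest p with higher levels in pools of 200, none of which passed the test, Csrnp2, which codes for a nuclear protein rich in cysteine and serine, had the smallest p and levels of 5.09, 4.83, 4.11 and 5.07 in the pools of 100 and 6.47, 7.02, 7.62, 6.88 and 7.18 in the pools of 200. All pools of 200 lay above all pools of 100, with a difference of 2.26 ± 0.32 (SE, limma adjusted p = 0.101). Genes chosen by smallest p in these same arrays tend to have groups without overlap, so a lack of overlap adds no support for them. Rbm15, an RNA-binding protein of the complex that methylates adenosines in mRNA, had 7.21, 6.33, 5.21 and 6.29 against 8.18, 8.94, 9.17, 8.61 and 8.59. These levels did not overlap either, and the difference was 2.44 ± 0.38 (adjusted p = 0.155). Polr2m, a protein bound to RNA polymerase II, had 6.54, 6.26, 6.95 and 6.92 against 9.02, 8.19, 8.74, 7.72 and 8.75. Its groups did not overlap, and the difference was 1.82 ± 0.32 (adjusted p = 0.234).

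Sult3a1, a sulfotransferase, had the largest difference of all genes, 4.07 ± 0.80 (limma adjusted p = 0.385). Its levels were 7.38 in 100-1 and 3.33, 3.28 and 3.0 in the other pools of 100, against 9.75, 8.02, 8.05, 7.55 and 8.23 in the pools of 200. The groups did not overlap, but 100-1 lay just below 200-4. Without 100-1 the difference was 5.12 and passed the threshold (adjusted p = 0.00365). It also passed within the short number format (4.83, adjusted p = 0.00282), which leaves out 100-1 as well. With the number format as a block, which keeps 100-1, it was 4.68 and did not pass (limma adjusted p = 0.125).

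The remaining genes of smallest p in this direction were 4930503E14Rik (1.84 ± 0.28), Gm9947 (1.64 ± 0.27), Dnajc12 (1.82 ± 0.32), Tha1 (1.77 ± 0.34), 5730522E02Rik (1.86 ± 0.38) and Rps15a-ps6 (1.38 ± 0.28). Dnajc12 codes for a co-chaperone, Tha1 for a threonine aldolase, and Rps15a-ps6 is named as a pseudogene of a ribosomal protein, whose probes may also read the parent gene. In each of these 6 genes all pools of 200 lay above all pools of 100, against 1.97% of all genes. Their choice by smallest p makes this likely. Among genes without overlap, Arrdc3, which codes for an arrestin-like adaptor, had a difference of 2.17 ± 0.47 (limma adjusted p = 0.385). H2-DMb2, a chain of the molecule that loads peptides on MHC class II, had 7.30, 6.66, 7.45 and 7.19 against 9.43, 10.13, 10.74, 7.91 and 7.78. Its difference was 2.05 ± 0.57 (adjusted p = 0.473), with 200-4 and 200-5 well below the other pools of 200. The gene has a near copy in the genome, so the share of each is uncertain.

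In the other direction, Mgam, an intestinal enzyme that splits maltose, had 9.67, 9.86, 8.38 and 8.64 in the pools of 100 and 6.85, 5.96, 5.77, 6.73 and 6.43 in the pools of 200. The groups did not overlap and differed by -2.79 ± 0.38 (limma adjusted p = 0.101). Klra8, a receptor of natural killer cells from a family of near-identical genes, had 8.75, 10.07, 8.64 and 8.26 against 7.15, 5.98, 5.65, 6.97 and 5.84, a difference of -2.61 ± 0.44 (adjusted p = 0.183). Ipo5, a carrier that imports proteins into the nucleus, had levels from 9.05 to 10.04 in the pools of 100 against 7.96, 7.73, 7.26, 8.79 and 8.22, a difference of -1.69 ± 0.35 (adjusted p = 0.385). All pools of 200 lay below all pools of 100 for these 3 genes, against 0.89% of all genes. Their choice by smallest p makes this likely too.

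The other genes of smallest p in this direction were Gm15496 (-1.87 ± 0.38), Sall1 (-1.44 ± 0.30), Eme2 (-1.72 ± 0.36), 1700088E04Rik (-2.84 ± 0.61), Rsph4a (-1.83 ± 0.40), Tor1a (-1.30 ± 0.28) and Amy1 (-1.34 ± 0.29), all at a limma adjusted p of 0.385. Sall1 is a transcription factor, Eme2 is part of a nuclease of DNA repair, Rsph4a belongs to motile cilia, Tor1a codes for torsinA, and Amy1 codes for an amylase whose probes may read other members of its family. The groups did not overlap except for 1700088E04Rik, where 200-5 (9.93) lay above 100-4 (9.52). E230013L22Rik also showed no overlap (-1.78 ± 0.41).

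Most of these genes had low levels in the group with the lower mean. In 17 of the 20 genes of smallest p, the mean of the lower group was below 6.74, the lowest of the array medians, compared with 53.8% of all genes. Both group means were below it in only 5 of the 20. Genes chosen for a difference between groups tend to have a low mean in the lower group. The share among them and that of all genes are therefore not directly comparable. As a guide to low levels, 76 olfactory, vomeronasal and taste receptor genes were used, families made in the nose and tongue. They had a median level of 5.99 with quartiles of 5.3 and 6.9. The lower means of Csrnp2 (4.77) and Sult3a1 (4.25) lay below that lower quartile, while those of Eme2 (7.71) and Ipo5 (7.99) lay above the upper one. The part of low signal in these differences was not tested.

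**Figure D3:**
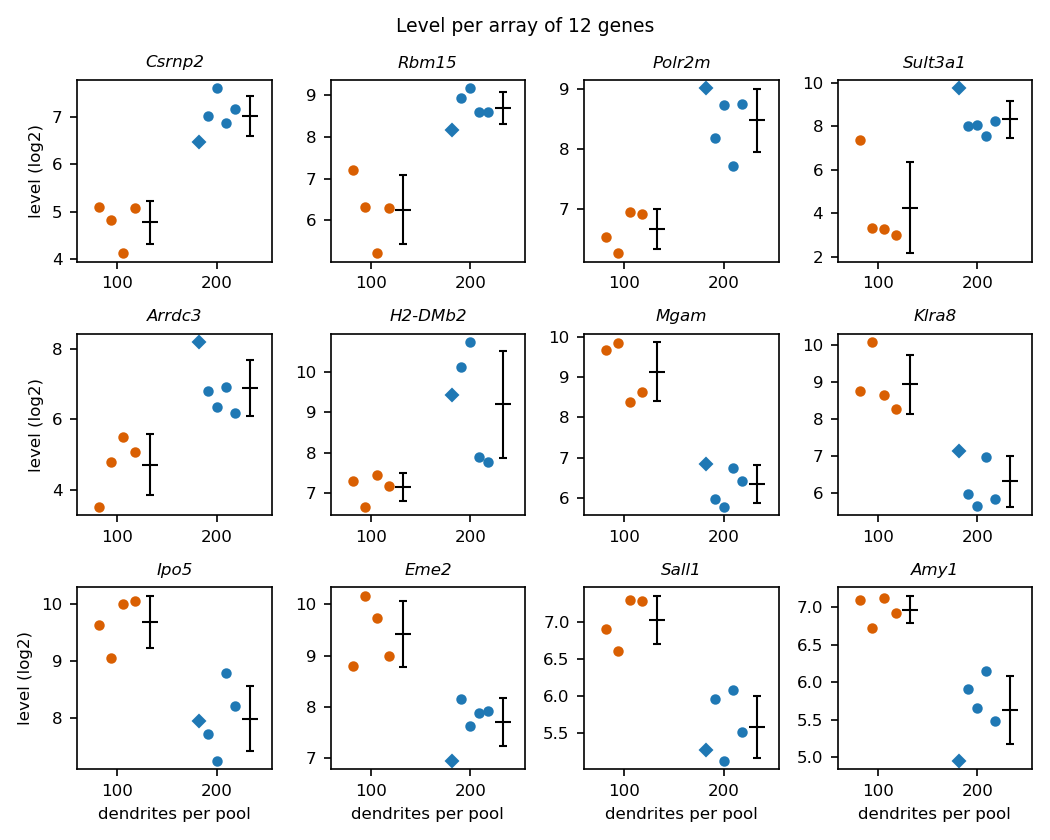
Levels (log2) per array of 12 genes in pools of 100 (orange) and pools of 200 (blue), with the mean and SD of each group in black and 200-1 as a diamond. The groups do not overlap in any panel, but the genes were chosen by smallest p or by lack of overlap. The 100-1 point of Sult3a1 at 7.38 lies close to the pools of 200.

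Of the 27 mRNAs best known from dendrites, 0 passed the test, 19 had a difference above 0 (70.4%, against 52.1% of all genes), and the median was 0.20 against 0.02 over all genes. The mean over the list overlapped between the groups, from 7.84 to 8.19 in pools of 100 and from 7.93 to 8.37 in pools of 200. The groups did not overlap for Pick1 and Nrgn, 7.41% of the list, both with higher levels in pools of 200, against 1.97% of all genes. Camk2a had 6.62, 6.70, 7.01 and 6.84 in pools of 100 and 7.05, 7.27, 6.79, 7.47 and 6.90 in pools of 200, a difference of 0.30 ± 0.26. Map2 had 8.16, 7.61, 8.55 and 8.17 against 7.34, 7.59, 8.44, 7.96 and 7.88, a difference of -0.28 ± 0.31, and it turned to 0.13 with the probe set of highest mean. Both genes overlapped between the groups. The smallest p values on the list were those of Pick1, a scaffold that binds AMPA receptors (0.69 ± 0.26), Dgkz, a lipid kinase (0.75 ± 0.32), and Rgs5, a regulator of G proteins (0.68 ± 0.31), with limma adjusted p from 0.612 to 0.64. Nrgn, which codes for the calmodulin-binding protein neurogranin, had 12.96, 12.71, 12.83 and 12.86 against 13.34, 13.03, 13.24, 13.20 and 13.02, a difference of 0.33 ± 0.24.

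Of 26 presynaptic genes 19 had a difference above 0 (73.1%, against 52.1% of all genes), with a median of 0.22. The list mean overlapped here too, from 8.08 to 8.45 in pools of 100 and from 8.26 to 8.62 in pools of 200. The groups did not overlap for 2 of them, both with higher levels in pools of 200 (7.69%, against 1.97% of all genes). Snap25, a protein of the membrane fusion machinery, had 7.32, 6.66, 6.57 and 6.79 in pools of 100 and 7.60, 7.86, 8.15, 7.42 and 7.56 in pools of 200, a difference of 0.88 ± 0.28 (limma adjusted p = 0.565). Cplx1, a complexin that controls vesicle release, had 9.13, 8.46, 8.69 and 8.36 against 9.43, 9.22, 9.61, 9.32 and 9.78, a difference of 0.81 ± 0.27 (adjusted p = 0.594). In both genes 100-1 came closest to the pools of 200. Cplx2 had 0.54 ± 0.28, and it turned to -0.18 when probe sets that can match several transcripts were left out.

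Postsynaptic genes had a median of 0.03 over 30 and glutamate receptors and their partners one of 0.01 over 31. The AMPA receptor partners Cacng4 and Cacng3 stood at 1.0 ± 0.36 and -1.11 ± 0.41, and the kainate receptor subunit Grik4 at 0.54 ± 0.27. Dlg4, the main scaffold of the postsynaptic density, had -0.50 ± 0.32 and Iqsec2, an exchange factor at the synapse, 0.62 ± 0.39, and with the probe set of highest mean they turned to 0.12 and -0.27. GABA receptor subunits had a median of 0.25 over 17 genes, of which 12 had a difference above 0 (70.6%), with 0.50 ± 0.31 for Gabrr1, 0.44 ± 0.35 for Gabre and -0.35 ± 0.30 for Gabra2. CaM kinases and calmodulin-related genes had a median of 0.22 over 15, and 0.06 without 200-1. Among them were Ppp3ca (0.74 ± 0.32), the catalytic subunit of calcineurin, which turned to -0.76 with the probe set of highest mean, and the calmodulin-binding Pcp4 (0.56 ± 0.37). These 4 lists held 0 genes that passed the test.

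**Figure D4:**
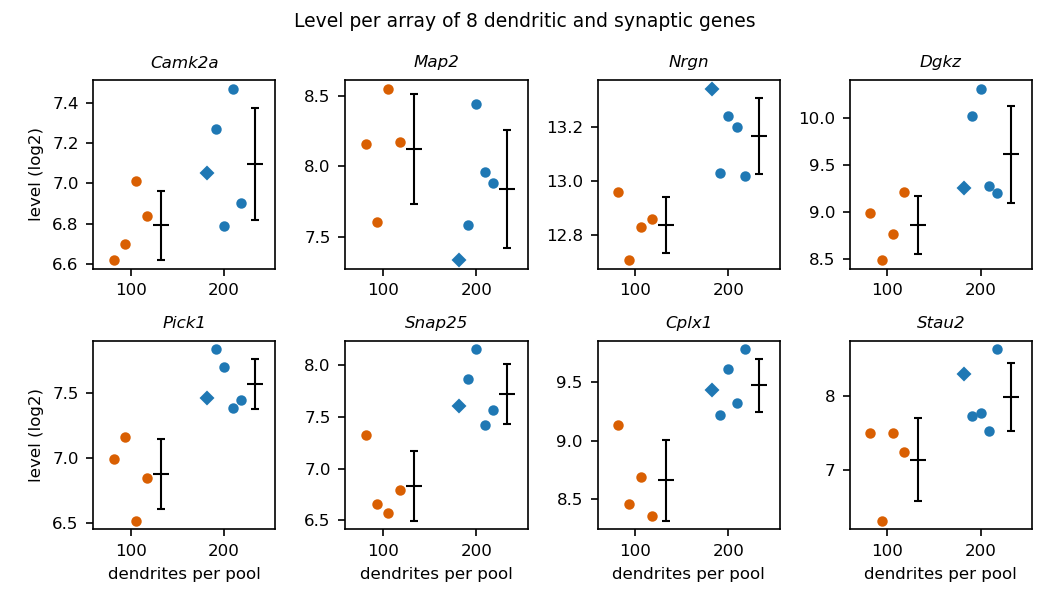
Levels (log2) per array of 8 dendritic and synaptic genes in pools of 100 (orange) and pools of 200 (blue), with the mean and SD of each group in black and 200-1 as a diamond. Camk2a, Map2 and Dgkz overlap between the groups, and the other 5 genes do not.

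Proteins that carry mRNA in neurites had a median of 0.02 over 42 genes, with 2 that did not overlap, both with higher levels in pools of 200 (4.76%, against 1.97% of all genes). Stau2, a double-stranded RNA-binding protein of transport granules, had 7.49, 6.31, 7.50 and 7.24 against 8.29, 7.72, 7.76, 7.52 and 8.63. The lowest pool of 200 lay just above the highest pool of 100, and the difference was 0.85 ± 0.34 (limma adjusted p = 0.631). Elavl1, which stabilises mRNAs, had 0.79 ± 0.35 without overlap and Cpeb2, a regulator of mRNA tail length, -1.04 ± 0.46 with overlap. Kinesin motors had a median of -0.11 over 40 genes, with the smallest p for Kif17 (0.78 ± 0.37), a dendritic motor, Kif13a (-0.59 ± 0.29) and Kif1c (0.42 ± 0.29).

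Among genes of the translation apparatus the differences went both ways. Cytosolic ribosomal proteins had a median of -0.18 over 47 genes, with 30 below 0. Rps10 had 0.76 ± 0.28, Rps18 -1.10 ± 0.50 and Rpl39 -0.99 ± 0.46, and all 3 overlapped between the groups. These genes have many processed copies in the genome, so their probe sets may be shared. In 200-1 the mean over the list was 8.02, while the other arrays ran from 8.87 to 9.64, and without it the median difference was 0.08. Translation factors and their regulators had a median of 0.03 over 61 genes, of which 5 were lower at an unadjusted p under 0.05 (8.2%, against 3.05% of all genes) and 3 higher (4.92%). Eif3a, a subunit of the initiation factor that binds the small ribosomal subunit, had 9.16, 8.02, 9.65 and 9.70 against 6.84, 8.37, 7.99, 7.83 and 8.37, a difference of -1.25 ± 0.42 (limma adjusted p = 0.598). Eif4b had -1.41 ± 0.49 and Eif4e3, a member of the cap-binding family, 1.32 ± 0.49. The groups overlapped for these 3 genes.

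Array 200-1 stood apart in several lists of genes. Respiratory chain genes averaged 8.27 in 200-1 and between 8.71 and 9.59 in the other 8 arrays, and their median over 90 genes was -0.05 with 200-1 and 0.15 without it. Genes of the cytoskeleton averaged 8.48 in 200-1 and from 8.97 to 9.65 elsewhere, with a median over 41 genes of -0.05, and 0.09 without 200-1. Axonal mRNAs averaged 8.28 in 200-1 and from 8.71 to 9.52 elsewhere, with medians of 0.04 and 0.31 over 22 genes. Olfactory receptors went the other way and averaged 7.37 in 200-1 against 6.46 to 6.72 in the other 8 arrays. For each of these 4 lists the SD among pools of 200 was larger than the difference between the group means.

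Single members of these groups gave larger values. Mrpl2, a protein of the mitochondrial ribosome, had 8.64, 7.34, 7.84 and 7.53 in pools of 100 and 8.52, 9.47, 10.15, 9.56 and 10.09 in pools of 200, a difference of 1.72 ± 0.39 (limma adjusted p = 0.402). Only 200-1 and 100-1 overlapped. Mrpl17 had -0.90 ± 0.35 and Mrpl23 -0.74 ± 0.31, and the median over 75 mitochondrial ribosome genes was -0.07. Of the respiratory chain, the complex I subunit Ndufs4 had -0.82 ± 0.35, Cox16 -0.89 ± 0.46 and the complex III subunit Uqcrq 0.54 ± 0.33. With the probe set of highest mean Mrpl17 turned to 0.04 and Cox16 to 0.75.

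Add1, an adducin that caps actin, had levels of 10.87, 10.78, 10.94 and 10.79 in the pools of 100 and of 8.89, 7.47, 7.48, 11.10 and 10.99 in the pools of 200. The pools 200-1, 200-2 and 200-3 lay below every pool of 100, and 200-4 and 200-5 lay above every one. The difference was -1.66 ± 0.72 (limma adjusted p = 0.633), and 0.56 with the probe set of highest mean. Dbn1, an actin-binding protein of spines, had -0.69 ± 0.30 and Tubb5, a tubulin, 0.69 ± 0.33. Among axonal mRNAs the nuclear import factor Kpnb1 had 0.89 ± 0.32, and -0.16 with the probe set of highest mean, Dpysl2 0.83 ± 0.38 and the actin regulator Cfl1 0.63 ± 0.31.

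Glycolysis genes differed among pools of 1 size. The mean over 14 genes was 9.56 in 200-2 and 9.68 in 200-3 but 8.66 in both 200-4 and 200-5 and 8.71 in 200-1, while the pools of 100 ran from 8.59 to 9.11. The median difference was 0.14. Pkm, which codes for pyruvate kinase, had 0.68 ± 0.31, Hk2, a hexokinase, -0.69 ± 0.31 and Eno2, the neuronal enolase, 0.97 ± 0.46, and none passed the test (limma adjusted p from 0.637 to 0.648). Proteasome subunits had a median of -0.06 over 39 genes, with 1.25 ± 0.48 for the immune subunit Psmb9, 1.21 ± 0.63 for Psmd1 and -0.56 ± 0.31 for Psmd7, which was 0.02 within the short number format. Psmd1 was at 11.37 and 11.20 in 200-2 and 200-3 and between 7.99 and 9.23 in the other 7 arrays.

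Chaperones and stress genes had a median of -0.06 over 33, and immediate early genes, which neurons induce on activity, one of 0.07 over 23. The growth arrest gene Gadd45a had -1.21 ± 0.61, with 11.34 and 12.02 in 100-1 and 100-2 and between 8.07 and 10.08 in the other 7 arrays. Within the short number format its difference was -0.15. Ddit3, a transcription factor of the stress response, had 0.68 ± 0.36 and Txn1, the antioxidant thioredoxin, -0.53 ± 0.32. Of the immediate early genes, Ier5 had -1.31 ± 0.42, and 0.01 with the probe set of highest mean, Atf3 0.67 ± 0.39 and Nr4a1 0.62 ± 0.37.

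Of 81 potassium channel subunits, 8 were higher at an unadjusted p under 0.05 (9.88%) and 2 lower (2.47%), against 4.77% and 3.05% of all genes, while the median was 0.01 and 0 passed the test. Kcnh5 had 5.35, 5.47, 5.0 and 5.21 against 4.53, 3.23, 3.12, 3.14 and 4.57, a difference of -1.54 ± 0.38 (limma adjusted p = 0.43) without overlap. Apart from 100-1 and 100-2, these levels lay below the lower quartile of the 76 receptor genes used as a guide to low levels. Kcna7 had 0.89 ± 0.30, also without overlap, and Kcnn4, a calcium-activated channel, -1.48 ± 0.52 with overlap. Kcnt2, a sodium-activated channel chosen after its values were seen, had 9.44, 5.17, 4.39 and 3.17 against 8.98, 7.19, 9.78, 7.13 and 7.90, a difference of 2.66 ± 1.03. Array 100-1 lay within the pools of 200, and the other pools of 100 lay below them.

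**Figure D5:**
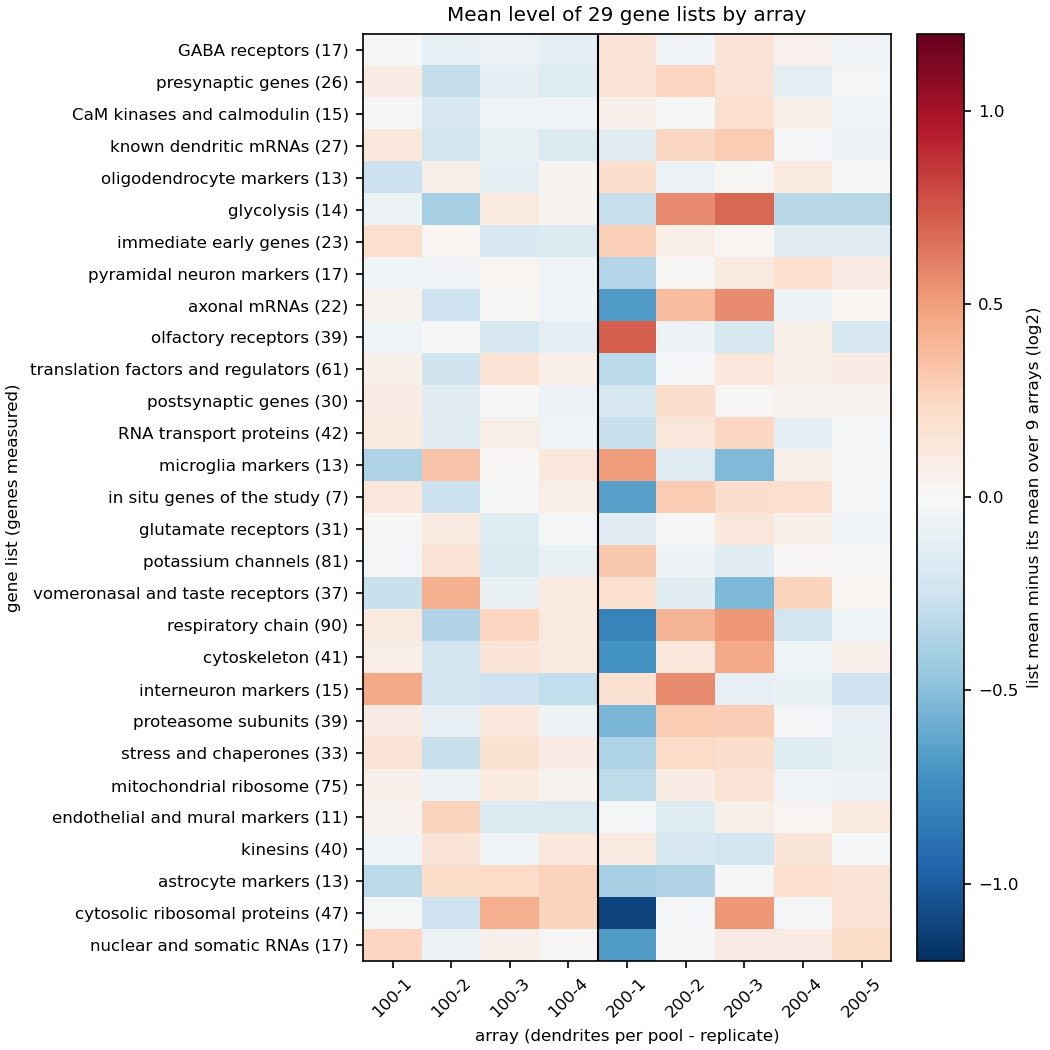
Mean level of each of 29 gene lists (log2, number of genes in brackets) in each of the 9 arrays, minus the mean of that list over the 9 arrays, with lists ordered by their median difference between pool sizes. Array 200-1 is low for ribosomal, respiratory chain and cytoskeleton genes and high for olfactory receptors, and 200-2 and 200-3 are high for glycolysis.

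Nuclear and somatic RNAs had a median of -0.30 over 17 genes and 0.10 without 200-1, where their mean was 7.92 against 8.58 to 8.81 in the other pools of 200. Miat, a nuclear noncoding RNA, had -1.08 ± 0.50, Xist, the RNA that coats the inactive X chromosome, 1.06 ± 0.51 and the transcription factor Tbr1 -0.85 ± 0.45, all with overlap between the groups. Markers of pyramidal neurons averaged 7.58 ± 0.0277 (SD, n = 4) in pools of 100 and 7.61 ± 0.217 (SD, n = 5) in pools of 200. Slc17a7, the vesicular glutamate transporter of excitatory neurons, had means of 6.18 and 6.77, Camk2a of 6.79 and 7.10, and Nrgn of 12.84 and 13.17. Levels of different probe sets cannot be set against each other, so these values do not show how abundant each marker was. The mineralocorticoid receptor Nr3c2 had 11.34, 11.92, 9.37 and 9.42 against 7.03, 7.81, 6.84, 11.01 and 10.21. Its difference of -1.94 ± 0.88 was -0.43 within the short number format.

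Markers of inhibitory neurons were measured beside them. Gad1, an enzyme that makes GABA, had means of 10.64 ± 0.483 (SD, n = 4) and 10.39 ± 0.442 (SD, n = 5). The mean over 15 interneuron markers was 8.32 in 100-1 and 8.43 in 200-2, and from 7.57 to 8.04 in the other 7 arrays. Within this list Dlx2 had 1.28 ± 0.56, Pvalb 0.76 ± 0.47 and Dlx5 0.39 ± 0.28.

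Glial and vessel markers gave no difference that passed the test. Astrocyte markers had a median of -0.14 over 13 genes, with list means of 6.60, 6.54 and 6.57 in 100-1, 200-1 and 200-2 and from 6.91 to 7.20 in the other 6 arrays. Gfap, the filament protein of astrocytes, had means of 5.92 and 5.93. Sox9 had -1.28 ± 0.55, S100b 0.47 ± 0.27 and Glul, which codes for glutamine synthetase, -0.46 ± 0.37, and 0.16 with the probe set of highest mean. Oligodendrocyte markers had a median of 0.15 over 13 genes and 0.00 without 200-1, with 0.97 ± 0.35 for Olig1, 0.66 ± 0.24 for Cspg4, where the groups did not overlap, and 0.57 ± 0.31 for the myelin gene Mbp, which turned to -0.31 with the probe set of highest mean. Microglia markers had a median of 0.02 over 13, with list means of 6.84 and 6.79, and values of 0.56 ± 0.30 for Itgam, 0.72 ± 0.48 for P2ry12 and -0.76 ± 0.53 for C1qc. Endothelial and mural markers had a median of -0.08 over 11. The smallest p was that of Rgs5 (0.68 ± 0.31), which is also on the list of dendritic mRNAs. Tek had 0.53 ± 0.41 and Pdgfrb -0.40 ± 0.41, and Pdgfrb turned to 0.35 in the fit over all 19 arrays. The part of other cells in the differences of single genes was not tested.

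Olfactory, vomeronasal and taste receptors also held members with such differences. Of 39 olfactory receptors, 5 were higher at an unadjusted p under 0.05 (12.8%, against 4.77% of all genes), among them Olfr74 (1.16 ± 0.46) and Olfr73 (1.17 ± 0.49), and Olfr480 had -0.82 ± 0.36. The level of Olfr73 was 7.13 in 200-1 and at most 6.28 in the other arrays of the comparison. It was 6.51 and 6.71 in the Balb/c pools of 100, 6.55 in the Balb/c pool of 200 and at most 6.76 in the C57BL/6 pools of 400. Of 37 vomeronasal and taste receptors, Vmn2r10 (-0.87 ± 0.30) and Vmn1r29 (-0.67 ± 0.27) were lower without overlap (5.41%, against 0.89% of all genes). Vmn2r88 had -0.84 ± 0.34.

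The genes of highest signal were largely shared, although ranks across probe sets do not show how abundant a transcript was. When genes were ranked within each array and the median rank was taken per group, the top 5% held 910 genes, and 781 of them (85.8% of each list) were in both. Between single arrays the top 5% shared from 69.9% to 88.6% of genes within pools of 100, from 55.8% to 82.4% within pools of 200 and from 54.7% to 83.2% across sizes. Among genes in 1 list alone, chosen after their values were seen, the haemoglobin gene Hba-a1 had a median rank of 822 in pools of 100 and 6779 in pools of 200, and the creatine kinase Ckb 2376.25 and 764.

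The 6 genes with the highest level were Smc1b, Sult2b1, Acot3, Oxt, Grid2ip and Tuba1a. Smc1b, a cohesin subunit, had 15.43 ± 0.111 (SD, n = 4) and 15.50 ± 0.079 (SD, n = 5), and Sult2b1, a sulfotransferase, 15.48 ± 0.0677 and 15.38 ± 0.16. Acot3, a thioesterase, had 15.11 ± 0.0819 and 15.11 ± 0.173, and Oxt, the oxytocin precursor, 14.99 ± 0.0664 and 15.01 ± 0.3. Grid2ip had 14.84 ± 0.425 and 14.79 ± 0.287, and Tuba1a, an alpha tubulin, 14.71 ± 0.699 and 14.67 ± 0.486. In each of the 6 the group means differed by less than the SD of the pools of 200. These levels lie near the highest value of the deposited table, where differences may be compressed, which was not tested.

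Of 7 genes that the study followed by in situ hybridisation, 0 passed the test (limma adjusted p from 0.82 to 0.989). Clasrp, a splicing-related protein, had means of 10.95 ± 0.485 (SD, n = 4) and 10.98 ± 0.267 (SD, n = 5), and Hnrnpk, an RNA-binding protein, 9.78 ± 0.687 and 10.16 ± 0.661. Commd3 had 8.82 ± 0.143 and 9.06 ± 0.0455, Olfm1 10.41 ± 0.533 and 9.99 ± 0.879, and Rps6 7.43 ± 0.694 and 7.58 ± 0.32. For Zfp410 they were 6.98 ± 0.755 and 6.87 ± 0.484, and for the histone gene H2az1 9.17 ± 0.896 and 9.06 ± 1.19. In every gene the groups overlapped.

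The reach of the amplified RNA was read from control probe sets at the 3' and 5' ends of Gapdh and Actb. For Gapdh the 3' signal exceeded the 5' signal by 3.13 ± 0.166 (SD, n = 4) in pools of 100 and by 3.38 ± 1.09 (SD, n = 5) in pools of 200 (two-sided exact permutation p = 0.73). For Actb the excess was 3.88 ± 0.465 and 3.45 ± 1.42 (exact permutation p = 0.675). In both, 200-1 lay farthest from the other arrays, with 5.0 for Gapdh and 1.17 for Actb, and both differences between the sizes turned sign without it, to -0.151 and 0.131.

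Pools of 400 dendrites of the same strain can be set beside these values. Csrnp2 had a mean of 6.73 in pools of 400, Rbm15 8.01 and Polr2m 8.52, each nearer to the pools of 200. For Mgam (7.36), Klra8 (7.23), Sult3a1 (6.32) and 4930503E14Rik (5.66) the mean of the pools of 400 lay between those of the other sizes, and Sall1 (6.90) lay close to its mean of 7.02 in pools of 100. Single pools of 400 spread widely, from 4.49 to 7.42 for 4930503E14Rik and from 4.3 to 7.62 for Sult3a1. The pools of 400 were not tested here.

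In Balb/c, 1 array of 200 and 2 of 100 allowed the same difference to be formed. A limma interaction term of pool size with strain passed for 35 of 18193 genes (0.192%), of which 23 had a higher difference in Balb/c and 12 a lower one. The fit assumes that the lone Balb/c pool of 200 varies like the other groups, so strain and the particular Balb/c pools cannot be told apart. Tuba1a had 11.04 and 10.85 in the Balb/c pools of 100 and 15.15 in the pool of 200, and from 13.67 to 15.2 in the 9 C57BL/6 arrays. The microtubule protein gene Mapt had 7.31 and 6.58 against 11.5, and from 9.65 to 10.85 in C57BL/6. Kif5c, a motor of neurites, had 6.51 and 5.45 against 9.55, and from 9.66 to 10.76 in C57BL/6. In these 3 genes both Balb/c pools of 100 lay below all 9 C57BL/6 arrays, and the Balb/c pool of 200 lay much closer to them. The 3 were taken from the genes that passed on these same values, so the pattern adds no support. Kdr, an endothelial marker, went the other way, with 12.24 and 11.3 in the Balb/c pools of 100 and 8.31 in the pool of 200.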

How the data were processed

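Biotin-labelled amplified RNA of dendrite pools had been hybridised to Affymetrix mouse arrays. The deposited table holds log2 values for 45101 probe sets, which the authors summarised with RMA 2.0 (per the submitters' processing notes) by an upper decile statistic. The median centring and 10th to 90th percentile scaling of their methods are not in the deposited values and were run as an alternative. Of the probe sets, 34945 named 1 gene symbol, 932 several, 9160 none, and 64 were controls. Genes came from GEO's platform annotation, 99.4% of it matched to RefSeq GRCm38.p6 by gene identifier, and 18193 genes were formed as the median of their probe sets.

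The 5 arrays of 200 and 4 of 100 were compared with limma 3.58.1 in R 4.3.3 (lmFit, eBayes, Benjamini-Hochberg over all genes, threshold 0.05). At 0.001, the study's threshold, 0 genes passed. Exact permutation tests, rankings and plots used Python 3.11.15, numpy 2.4.6, scipy 1.17.1, pandas 2.3.3 and matplotlib 3.10.9. The limma step was tested on simulated data with 100 changed genes of each size among 18193. Precision is limited by the number of arrays.

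The members and gene lists were chosen with earlier results of these data known. Named genes were, in each direction, the 10 of largest difference past the threshold, filled up by smallest p. Also named were, in each direction, the 5 of largest difference without overlap. Further named genes were up to 3 members of each list by smallest p, the in situ genes, the 6 highest genes, Map2 and Camk2a. Gad1, Gfap, Kcnt2, Hba-a1 and Ckb were given outside these rules. So were genes that passed only in the interaction or under an alternative. Alternatives were quantile normalization, range scaling, the probe set of highest mean, no ambiguous probe sets, a filter on dim genes, the methods' t-test, array weights, a block for the number format, the short format alone, all 14 C57BL/6 or all 19 arrays, a replicate block, and each array left out. Leaving out 200-1 and 100-2 together, the share of variance and the fit of replicates 1 to 4 without a block were added after seeing the data.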

Additional observations from a re-analysis of the deposited data

Results flagged for a closer look

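In 22 of 302 groups of 4 or 5 arrays (7.28%), 1 array lay far outside the others of its group by Dixon's criterion, which flags about 1 in 20 groups by chance. In pools of 100, array 100-1 stood out for Sult3a1 (7.38, others 3.0 to 3.33), Eif4e3 (9.01, others 6.50 to 6.92), C1qc (8.20, others 9.35 to 9.56), the mean of interneuron markers (8.32, others 7.57 to 7.63) and the mean of astrocyte markers (6.60, others 7.15 to 7.20). Array 100-2 stood out for Rps15a-ps6 (5.50, others 6.42 to 6.48), Cpeb2 (5.17, others 6.51 to 6.71), Sox9 (9.11, others 6.64 to 6.93), Olfr480 (7.60, others 6.72 to 6.87), Hnrnpk (8.76, others 10.05 to 10.17), Olfm1 (9.61, others 10.63 to 10.74) and Tuba1a (13.67, others 14.92 to 15.15). Array 100-4 did so for Txn1 (8.70, others 8.10 to 8.19) and Commd3 (9.03, others 8.73 to 8.76).

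In pools of 200, array 200-1 stood out for Tbr1 (4.91, others 6.69 to 7.36), Hnrnpk (9.01, others 10.27 to 10.66), Olfm1 (8.46, others 10.18 to 10.68), the mean of nuclear and somatic RNAs (7.92, others 8.58 to 8.81) and the mean of olfactory receptors (7.37, others 6.46 to 6.72). Array 200-2 did so for Cplx2 (11.13, others 10.56 to 10.71), 200-3 for Eif4e3 (9.40, others 8.22 to 8.50) and 200-4 for 5730522E02Rik (5.21, others 6.50 to 6.88).

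A limma interaction term of pool size with strain passed for 35 genes (2641 at an unadjusted p under 0.05). Of the listed genes, the interaction, Balb/c minus C57BL/6, was 4.72 for Mapt, 4.48 for Meg3, 3.99 for Kif5c, -3.42 for Kdr, 4.94 for Psmd14, 4.47 for Dnaja1 and 4.25 for Tuba1a. Each value rests on 1 Balb/c array of 200 and 2 of 100, so strain and these single pools cannot be told apart.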

How the results depend on the processing

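Of 106 named genes with a difference, 92 kept their direction under all of the settings run, and 5 passed the threshold under at least 1. Genes higher in pools of 200 numbered 2 with array weights (Csrnp2, 4930503E14Rik), 1 within the short number format (Sult3a1), 2 over all 14 C57BL/6 arrays (Csrnp2, Rbm15), 1 over all 19 arrays (Csrnp2) and 0 to 1 when each array was left out (Sult3a1 without 100-1). Genes lower numbered 1 with array weights (Mgam), 1 within the short format (S100a9) and 0 to 1 when each array was left out (Ncapg2 without 200-2). With the probe set of highest mean, differences turned to -0.16 (Kpnb1), 0.75 (Cox16), 0.04 (Mrpl17), 0.56 (Add1), 0.12 (Dlg4), -0.27 (Iqsec2), -0.76 (Ppp3ca), 0.01 (Ier5), 0.16 (Glul), -0.31 (Mbp) and 0.13 (Map2). Cplx2 turned to -0.18 without ambiguous probe sets, Psmd7 to 0.02 within the short format, and Pdgfrb to 0.35 and Map2 to 0.05 over all 19 arrays. The cause was not tested.

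Of 29 lists, 5 kept the sign of their median under all settings run, and 13 moved by 1 SD or more under some setting. Over all 19 arrays they were 0.31 (cytoskeleton), 0.17 (postsynaptic), 0.13 (GABA receptors), 0.06 (CaM kinases), 0.57 (glycolysis), 0.16 (astrocyte), -0.35 (endothelial and mural) and 0.41 (in situ genes). Within the short format they were 0.21 (glutamate receptors), 0.12 (GABA receptors) and 0.41 (interneuron), and the format as a block gave 0.11 (GABA receptors). Array weights gave 0.17 (glutamate receptors) and 0.09 (CaM kinases), and leaving out both 200-1 and 100-2 gave 0.16 and 0.10. The probe set of highest mean gave 0.01 (nuclear and somatic) and 0.04 (GABA receptors), and the filter on dim genes -0.38 (oligodendrocyte). With each array left out, medians ran from 0.04 to 0.26 (CaM kinases), 0.13 to 0.29 (GABA receptors), -0.04 to 0.16 (glutamate receptors), -0.14 to 0.39 (interneuron), -0.29 to 0.10 (nuclear and somatic), 0.00 to 0.29 (oligodendrocyte) and 0.01 to 0.32 (pyramidal). The 3' minus 5' difference between sizes was -0.279 (Gapdh) and 0.235 (Actb) within the short format, and ran from -0.151 to 0.503 and from -0.765 to 0.131 with each array left out. Under the filter on dim genes 395 of 455 top genes were shared.

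Same-numbered arrays did not deviate together (correlations -0.115, -0.258, 0.214 and -0.0606), so the numbers were not taken as pairs. With the replicate block limma called 0 genes (873 higher and 576 lower at an unadjusted p under 0.05), and the same arrays without the block 0 (1055 and 654). With array weights 844 genes were lower at an unadjusted p under 0.05, against 554.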
